A study of Homo sapiens with 12 samples.

Results

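Genes for making cholesterol and fatty acids were examined in prostate cancer cells with altered GALNT7, a glycosyltransferase that starts O-linked sugar chains on proteins. The set holds 32 genes chosen by their function, out of 59424 genes in the deposited tables, and all 32 were found by their Ensembl identifiers in both tables. They were divided by function into a sterol branch of 17 enzymes, a fatty acid branch of 7 enzymes, 2 enzymes that handle acetyl units, and 6 regulators or carriers. RNA-seq had been run on CWR22RV1 cells transduced with a lentiviral control shRNA (shControl) or an shRNA that depletes GALNT7 (GALNT7 KD), and on DU145 cells transduced with a lentiviral control open reading frame (OE control) or with GALNT7 (GALNT7 OE). There were 4 groups of 3 libraries, labelled as biological replicates. CWR22RV1 and DU145 are established prostate cancer lines, and all groups are stably transduced cells, so that no untransduced cells were compared. The labels give neither the treatment nor the age of the cultures. Whether replicates were separate transductions is not given in the sources used here, and the p-values measure the spread between these libraries.

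Cholesterol is built from acetyl-CoA through mevalonate, isoprenoid intermediates, squalene and lanosterol. Fatty acids are built from the same acetyl-CoA by carboxylation, chain assembly, elongation and desaturation. Most genes of both routes are switched on by the sterol regulatory element binding proteins (SREBPs), which SREBF1 and SREBF2 encode. SCAP carries the SREBPs to the Golgi, where they are cut and released, and INSIG1 and INSIG2 hold SCAP back in the endoplasmic reticulum when sterols are plentiful. Prostate cancer cells are known for active lipid synthesis, which androgens can stimulate.

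All values given here are normalised counts, that is, reads per gene divided by a size factor of the library. Libraries of CWR22RV1 held 18364512 to 22264533 reads and those of DU145 21628718 to 24356910. The cell lines had been scaled separately, so levels were compared only within a line. GALNT7 itself was measured first. Its normalised count was 862, 1042 and 1093 in shControl and 481, 501 and 400 in GALNT7 KD (log2 fold change -1.11, standard error 0.129, limma adjusted p=0.0051). In DU145 it was 1051, 928 and 913 in OE control and 1988, 2221 and 2334 in GALNT7 OE (log2 fold change 1.18, standard error 0.0863, limma adjusted p=8e-05). The groups did not overlap in either line (p=0.1 by an exact two-sided permutation test, which with groups of 3 can go no lower). The epithelial keratins KRT8 and KRT18 were at 4479 or above in every library. The leukocyte gene PTPRC stayed below 3 in all 12 libraries.

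Overexpression of GALNT7 in DU145 cells was accompanied by higher levels of most of these genes, in both branches. Of the 32 genes, 23 were upregulated, 3 were downregulated and 6 did not pass the test (limma, adjusted p below 0.05). Of all 18705 genes tested there, 43.5% passed, 22.9% upregulated and 20.5% downregulated, against 71.9% of the 32 genes upregulated. In knockdown of GALNT7 in CWR22RV1 cells 3 genes were downregulated, SCD, SREBF1 and INSIG1, and none was upregulated. That is 9.38% of the set, all downward, against 3.79% of all 17906 genes tested that passed downward. Of all genes 5.28% passed upward and 9.06% either way. The 9.38% rests on 3 genes. There 30 of 32 genes had log2 fold changes within 0.5 of 0, and none of the 17 sterol genes passed.

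Genes whose groups did not overlap were 46.9% of the set in knockdown, against 32.5% of all genes tested, and 78.1% in overexpression, against 55.3%. Under scaling to the 75th percentile, upregulated genes made up 41.6% of all calls in overexpression, against 52.8% on the deposited scale. The median log2 fold change of the set was -0.069 in knockdown and 0.78 in overexpression, while that of all genes tested was -0.0063 and -0.011.

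**Figure D1:**
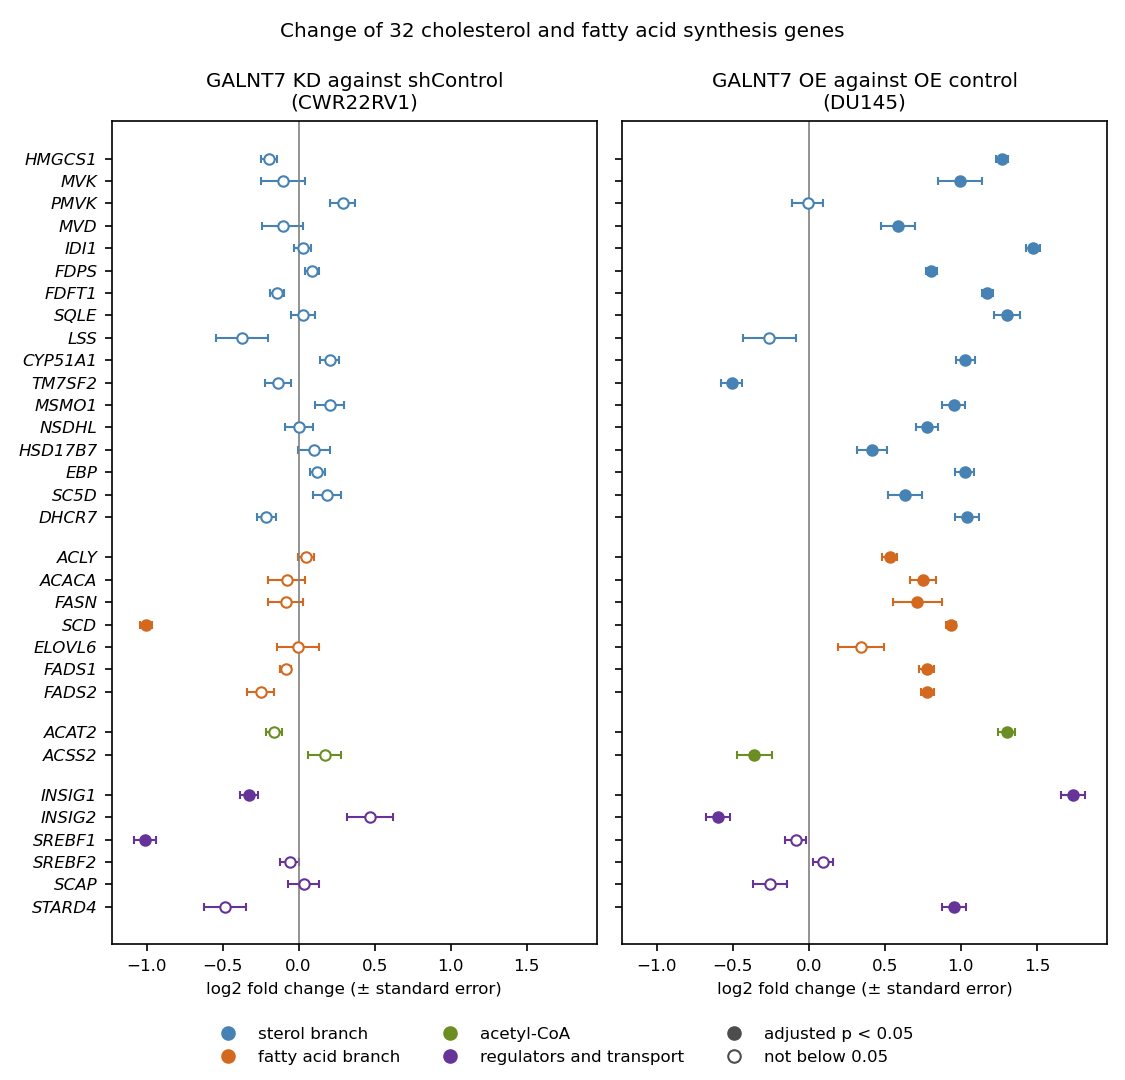
Log2 fold change (x axis, with its standard error) of each of the 32 genes (y axis, grouped by branch) for GALNT7 KD against shControl (left) and GALNT7 OE against OE control (right). Filled points passed an adjusted p of 0.05 in limma: 3 genes at left, all below 0, and 26 at right, of which 23 lie above 0.

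SCD encodes stearoyl-CoA desaturase, which puts the double bond into newly made saturated fatty acids. It lies at chr10:100347124-100364834 on the plus strand (GRCh38, GENCODE). Its normalised count was 11198, 11600 and 11312 in the shControl libraries and 5889, 5658 and 5461 in GALNT7 KD. The knockdown level was 49.9% of control (log2 fold change -1.004, standard error 0.0417, limma adjusted p=0.0001). In DU145 the OE control libraries held 22960, 23178 and 22656 and the GALNT7 OE libraries 42258, 44848 and 44445. The overexpression level was 1.91 times the control (log2 fold change 0.93, standard error 0.0307, limma adjusted p=3.8e-06). The groups did not overlap in either line. SCD and INSIG1 were the 2 genes of the set that passed in both comparisons, each lower in knockdown and higher in overexpression. Per kilobase of exon, SCD also had the highest control level of the set in each line, with 2120 normalised counts per kilobase in shControl and 4277 in OE control. ACLY came next in both lines at 1720 and 1891.

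None of the other 6 fatty acid genes passed in knockdown. FASN, the fatty acid synthase itself (chr17:82078333-82098332, minus strand), had 10050, 8971 and 10382 normalised counts in shControl and 8792, 8126 and 10969 in GALNT7 KD. The groups overlapped, and the third knockdown library was the highest of the 6 (log2 fold change -0.085, standard error 0.115, limma adjusted p=0.69). ACLY, which cleaves citrate into acetyl-CoA, had a log2 fold change of 0.049 ± 0.0510 (SE; limma adjusted p=0.59). For ACACA, which carboxylates acetyl-CoA to malonyl-CoA, it was -0.079 ± 0.123 (SE; limma adjusted p=0.74). The elongase ELOVL6 stood at -0.0039 on this scale. The desaturase gene FADS2 had 1290, 1274 and 1334 in shControl and 1086, 986 and 1217 in GALNT7 KD, all lower (log2 fold change -0.25, limma adjusted p=0.13). It passed with chromosome medians set to 0 (log2 fold change -0.31, limma adjusted p=0.048). FADS1 had 4726, 4840 and 4738 against 4431, 4557 and 4489, again without overlap (log2 fold change -0.086, limma adjusted p=0.22). The library values of FADS1 and FADS2 were added after they were seen.

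In overexpression 6 of the 7 fatty acid genes were upregulated. FASN had 5410, 6535 and 6483 normalised counts in OE control and 11301, 11556 and 7740 in GALNT7 OE (log2 fold change 0.71, standard error 0.161, limma adjusted p=0.011). The groups did not overlap, but the third overexpression library lay much closer to the controls than the other two. ELOVL6 showed the same library apart, with 1781, 1912 and 1868 in OE control and 2553, 2800 and 1823 in GALNT7 OE, and did not pass (log2 fold change 0.34, limma adjusted p=0.11). Without that library its log2 fold change was 0.53 and it passed (limma adjusted p=0.0024), while FASN was at 0.90 (limma adjusted p=0.001). ELOVL6 was described in this detail after its values were seen. ACLY, ACACA, FADS1 and FADS2 rose by 0.53, 0.75, 0.77 and 0.78 on the log2 scale, with limma adjusted p from 2.5e-05 to 0.00051. FADS1 and FADS2 are neighbours on opposite strands and share 490 exon bases, and the strand setting of the counting is not given in the sources used here.

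In the sterol branch, 14 of 17 genes were upregulated in overexpression. IDI1, the isomerase that makes the reactive isoprene unit (chr10:1039152-1049170, minus strand), had the largest change of the branch. Its normalised count was 1478, 1452 and 1493 in OE control and 3960, 4146 and 4170 in GALNT7 OE. This is 2.78 times the control (log2 fold change 1.47, standard error 0.0462, limma adjusted p=3.2e-06). SQLE, the epoxidase at the first oxygen-dependent step, had 1618, 1367 and 1544 in OE control and 3394, 3890 and 3881 in GALNT7 OE (log2 fold change 1.30, standard error 0.0852, limma adjusted p=4.9e-05). The groups lay far apart for both genes. In CWR22RV1 the groups overlapped for both. SQLE had 1905, 1790 and 1786 in shControl and 1937, 1985 and 1677 in GALNT7 KD (log2 fold change 0.027, limma adjusted p=0.87). IDI1 had 2293, 2461 and 2448 against 2534, 2428 and 2380 (log2 fold change 0.028, limma adjusted p=0.80).

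Followed along the pathway, the rise in overexpression was found at early and late steps but not at every one. HMGCS1, the synthase that commits acetyl units to mevalonate, rose by 1.27 on the log2 scale, mevalonate kinase MVK by 0.99 and the decarboxylase MVD by 0.59. PMVK, the kinase that acts between MVK and MVD, stood at -0.0065 ± 0.101 (SE; limma adjusted p=0.97). FDPS, which makes farnesyl diphosphate, rose by 0.81, and FDFT1, which joins farnesyl units into squalene, by 1.17. LSS, which closes the ring to lanosterol, had 1690, 1974 and 1638 in OE control and 1517, 1858 and 1132 in GALNT7 OE and did not pass (log2 fold change -0.26, standard error 0.177, limma adjusted p=0.28). Its lowest library was again the third of GALNT7 OE, and without it the log2 fold change was -0.069. PMVK and LSS, neither of which passed in either comparison, were chosen for this description after their values were seen.

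Among the enzymes that turn lanosterol into cholesterol, 7 of 8 were upregulated. The demethylase CYP51A1 rose by 1.03 on the log2 scale, the oxidase MSMO1 by 0.95, the dehydrogenase NSDHL by 0.78 and the isomerase EBP by 1.03. DHCR7, which makes the last double-bond reduction of one route, rose by 1.04, SC5D by 0.63 and HSD17B7 by 0.41. The exception was TM7SF2, a sterol C14 reductase (chr11:65111845-65116384, plus strand). Its normalised count was 1979, 1894 and 1921 in OE control and 1434, 1403 and 1243 in GALNT7 OE, without overlap (log2 fold change -0.51, standard error 0.0692, limma adjusted p=0.0012). LBR, a nuclear envelope protein that has the same reductase activity, is not one of the 32 genes and moved the other way, from 2009, 1748 and 2133 to 3444, 3512 and 3431 (log2 fold change 0.82, limma adjusted p=0.00023). In knockdown TM7SF2 had 587, 588 and 662 in shControl and 528, 562 and 581 in GALNT7 KD and did not pass (log2 fold change -0.14, limma adjusted p=0.37). Some of these levels are less certain because genes share sequence. CYP51A1 shares 2844 exon bases with AC000120.2 on the same strand, and FDPS and HSD17B7 have pseudogene copies.

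In knockdown none of the 17 sterol genes passed in limma, and their log2 fold changes ran from -0.37 (LSS) to 0.29 (PMVK), with 10 of 17 above 0. At an unadjusted p below 0.05 there were 6, and 26.1% of all genes tested were below it. With edgeR on the recovered reads the count was also 0, while DESeq2 called 5, PMVK and CYP51A1 higher and HMGCS1, FDFT1 and DHCR7 lower. Of all genes tested, edgeR called 8.63% and DESeq2 14.8% (8.27% higher and 6.48% lower). The largest of these 5 changes under DESeq2 was that of PMVK, at 0.29. PMVK had 1214, 1263 and 1264 normalised counts in shControl and 1498, 1394 and 1693 in GALNT7 KD (log2 fold change 0.29, standard error 0.0831, limma adjusted p=0.079). CYP51A1 passed in limma without the third GALNT7 KD library (log2 fold change 0.27, adjusted p=0.027). With chromosome medians set to 0, the sterol genes past the threshold were 3, all lower, and 3.1% of all genes passed downward.

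**Figure D2:**
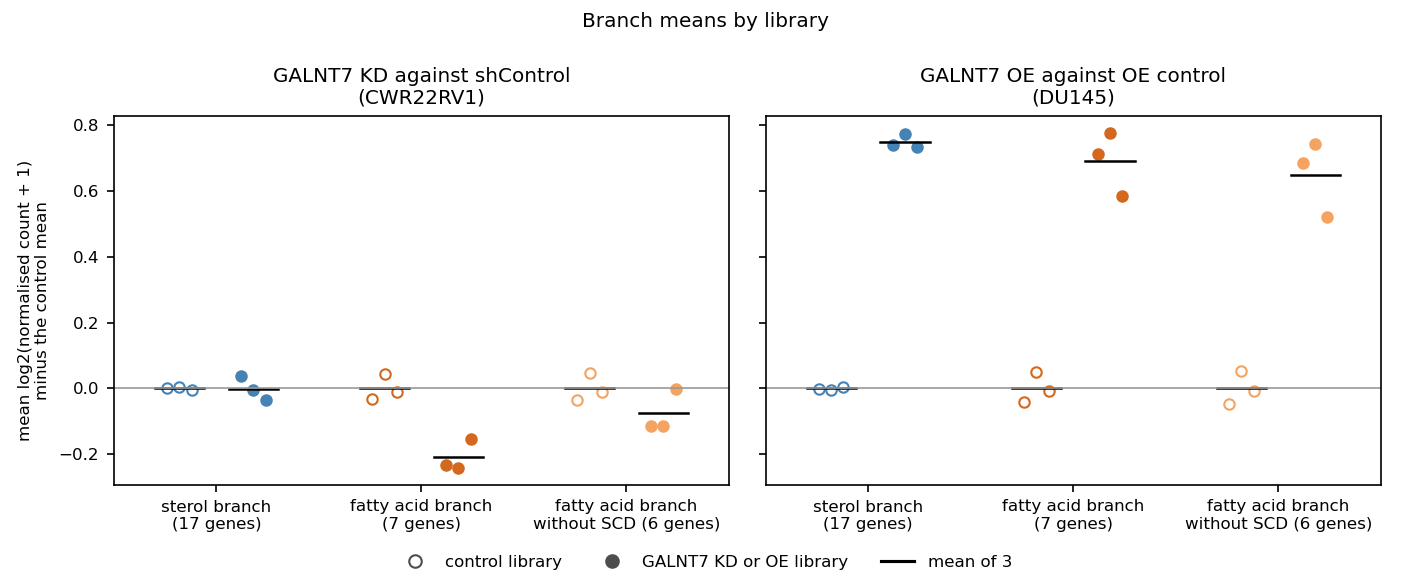
Mean over the genes of a branch of log2(normalised count + 1), less the mean of the 3 control libraries (y axis), for each library of CWR22RV1 (left) and DU145 (right). Open points are controls, filled points GALNT7 KD or OE, and black lines the mean of 3; at left the fatty acid branch lies at -0.24 to -0.15 in GALNT7 KD, and at -0.11 to -0.0006 without SCD, and at right both branches lie at 0.58 or above.

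The branches were compared library by library, as the mean log2 level of their genes above or below the control mean. This is a description over genes chosen for their function, and no test was run on it. In overexpression the sterol branch lay at 0.74, 0.77 and 0.73 in the 3 libraries and the fatty acid branch at 0.71, 0.78 and 0.58. The ranges of the branches overlapped, and the low fatty acid value belonged to the third library, in which FASN and ELOVL6 were low. The median log2 fold change was 0.95 for the sterol genes and 0.75 for the fatty acid genes. The spread within the sterol branch, from -0.51 to 1.47, was wider than within the fatty acid branch, from 0.34 to 0.93.

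In knockdown the sterol branch lay at 0.038, -0.0052 and -0.034 and the fatty acid branch at -0.23, -0.24 and -0.15. Without SCD the other 6 fatty acid genes lay at -0.11, -0.11 and -0.0006, against -0.035 to 0.046 in the controls. The median log2 fold change was 0.027 for the sterol genes and -0.085 for the fatty acid genes. Without the first GALNT7 KD library the fatty acid median was -0.051 and the gap between the branches fell from 0.11 to 0.054. As a share of all normalised counts in a library, the 32 genes took 0.483% to 0.491% in shControl and 0.435% to 0.451% in GALNT7 KD. In DU145 they took 0.459% to 0.474% in OE control and 0.751% to 0.790% in GALNT7 OE. In such bulk samples a change in part of the cells and a change in RNA per cell cannot be told apart.

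Both acetyl genes changed in overexpression, in opposite directions. ACAT2 encodes the cytosolic thiolase that joins acetyl units at the start of the sterol route (chr6:159760328-159779055, plus strand). It had 1085, 1032 and 984 normalised counts in OE control and 2621, 2509 and 2508 in GALNT7 OE (log2 fold change 1.30, standard error 0.0584, limma adjusted p=1e-05). The groups lay far apart. ACAT2 shares 1141 exon bases with SOD2 on the opposite strand. ACSS2, which makes acetyl-CoA from acetate (chr20:34872146-34927962, plus strand), had 2197, 1744 and 2276 in OE control and 1478, 1752 and 1595 in GALNT7 OE. The groups overlapped by their second libraries (log2 fold change -0.36, standard error 0.116, limma adjusted p=0.043). The call was lost in 9 of 16 alternatives, with limma adjusted p up to 0.16. These included leaving out replicate 1 or 3 of OE control or replicate 1 or 3 of GALNT7 OE (limma adjusted p 0.098 to 0.12). In knockdown neither passed, with ACAT2 at -0.16 on the log2 scale (limma adjusted p=0.10) and ACSS2 at 0.17 (limma adjusted p=0.37).

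The mRNAs of the SREBPs did not rise with the enzymes in overexpression. SREBF2, the main activator of sterol genes, had 8069, 8474 and 7499 in OE control and 7914, 8728 and 9057 in GALNT7 OE (log2 fold change 0.096, standard error 0.0663, limma adjusted p=0.29). SREBF1, the main activator of fatty acid genes, had 1630, 1681 and 1670 in OE control and 1592, 1665 and 1439 in GALNT7 OE (log2 fold change -0.088, standard error 0.0675, limma adjusted p=0.34). The groups overlapped for both. SREBF2 passed upward when chromosome medians were set to 0 (log2 fold change 0.33), and SREBF1 passed downward under quantile normalisation (log2 fold change -0.20). SCAP had 2680, 2464 and 2130 in OE control and 2215, 1781 and 2100 in GALNT7 OE (log2 fold change -0.25, standard error 0.112, limma adjusted p=0.11), and it passed downward under scaling to the 75th percentile.

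In knockdown SREBF1 fell and SREBF2 did not pass. SREBF1 (chr17:17810399-17837002, minus strand) had 2333, 2180 and 2157 normalised counts in shControl and 1185, 1026 and 1104 in GALNT7 KD, which is 49.7% of control (log2 fold change -1.01, standard error 0.0735, limma adjusted p=0.0011). The groups lay far apart, and SREBF1 passed in all 18 alternatives at a log2 fold change between -1.08 and -0.96. SREBF2 had 5451, 4815 and 5331 in shControl and 5146, 5092 and 4728 in GALNT7 KD (log2 fold change -0.058, standard error 0.0630, limma adjusted p=0.61). SCAP had 2659, 2629 and 2794 against 2607, 2490 and 3224 (log2 fold change 0.033, limma adjusted p=0.88). The gene body of SREBF1 shares 556 exon bases with RAI1 on the other strand.

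INSIG1 and INSIG2 moved in opposite directions in overexpression. INSIG1 is itself an SREBP target and lies at chr7:155297776-155310235 on the plus strand. It had the largest change of the set, from 795, 674 and 777 in OE control to 2395, 2505 and 2578 in GALNT7 OE, which is 3.33 times the control (log2 fold change 1.74, standard error 0.0787, limma adjusted p=1e-05). INSIG2 (chr2:118088452-118110997, plus strand) fell from 985, 894 and 838 to 608, 599 and 583 (log2 fold change -0.60, standard error 0.0797, limma adjusted p=0.0011). Neither pair of groups overlapped. In knockdown INSIG1 fell from 1698, 1881 and 1804 in shControl to 1426, 1453 and 1411 in GALNT7 KD, without overlap (log2 fold change -0.33, standard error 0.0608, limma adjusted p=0.023). This call was lost in 9 of 18 alternatives, among them the fit with a replicate block (adjusted p=0.052) and each of the 6 that left out a library (limma adjusted p 0.051 to 0.086). INSIG2 had 117, 84.9 and 104 in shControl and 141, 142 and 138 in GALNT7 KD, without overlap, and did not pass (log2 fold change 0.47, standard error 0.153, limma adjusted p=0.11).

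STARD4, a carrier of cholesterol between membranes and another SREBP target, rose in overexpression from 553, 499 and 585 to 1040, 1031 and 1097 (log2 fold change 0.95, standard error 0.0808, limma adjusted p=0.00015). In knockdown it had 455, 587 and 519 in shControl and 413, 318 and 384 in GALNT7 KD, without overlap. The difference did not pass in limma (log2 fold change -0.49, standard error 0.139, adjusted p=0.078) and passed in DESeq2 (adjusted p=0.026). Across the set, the sign of the log2 fold change in knockdown was opposite to that in overexpression for 19 genes and the same for 13. Whether a gene's change differed between the lines was not tested, since they were scaled separately and carry different constructs.

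**Figure D3:**
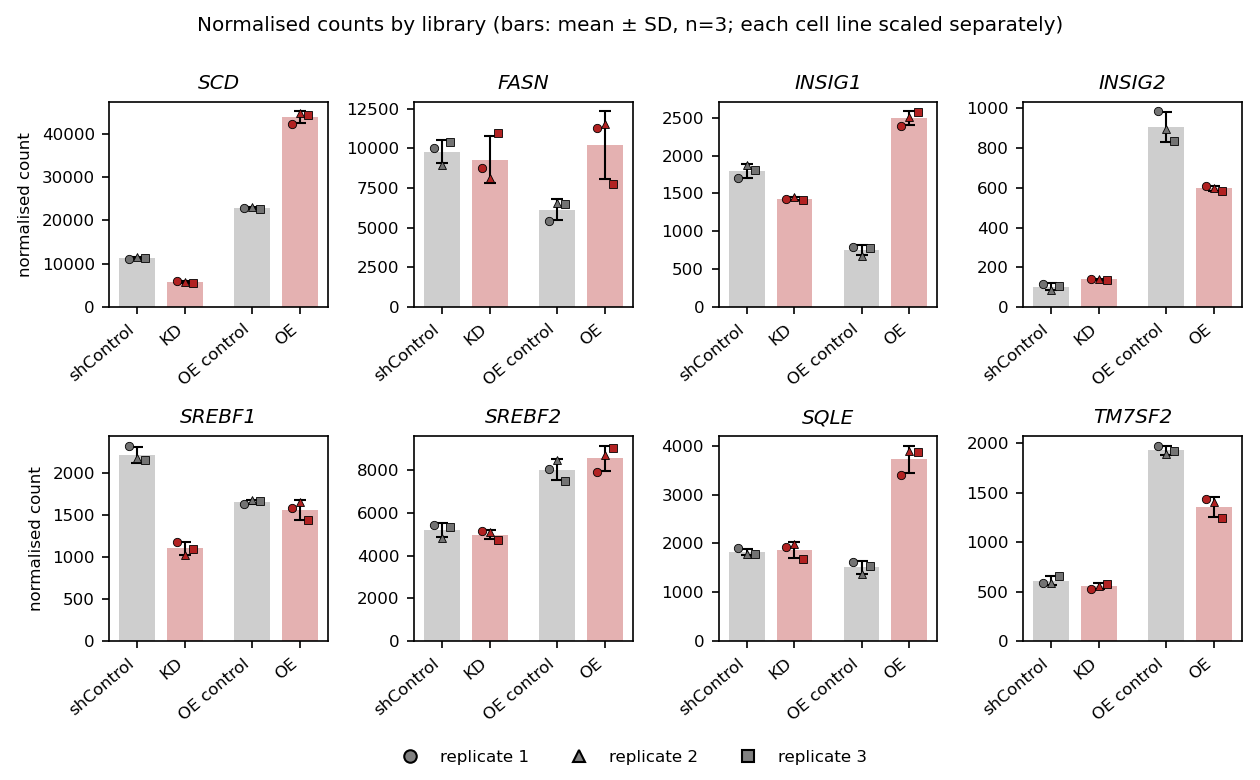
Normalised count (y axis, from 0) of 8 genes in each library of the 4 groups (x axis); bars are means of 3 libraries, error bars the SD and symbols the replicates. SCD differs from control in both lines, SREBF1 in knockdown, SQLE in overexpression, and INSIG1 and INSIG2 move apart in overexpression; the third GALNT7 OE library is the low FASN value of 7740.

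Since many of these genes are known SREBP targets, the promoters of the set were searched for 3 short motifs on both strands. RefSeq windows (GRCh38.p14) from 250 bases before to 50 after the start were found for 28 of the 32 genes, all but FASN, ACAT2, FDFT1 and SQLE. The motifs were TCACNCCAC, a form of the core of a sterol regulatory element, CCAAT, bound by the partner factor NF-Y, and GGGCGG, bound by Sp1. An exact TCACNCCAC was in 1 of 28 genes, against 1.39% of 27305 genes with a window. CCAAT was in 21 of 28 genes, or 75%, against 39.7% of all genes and 42.3% of those tested in overexpression. Within the set it was in 13 of 15 sterol genes and 4 of 6 fatty acid genes. GGGCGG was in 27 of 28 genes, against 75.3% of the genes tested in overexpression. A match describes letters in the window, not binding. Other forms of the sterol element and bases outside the windows were not searched. A missing match therefore does not show that a gene lacks the element.

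The windows of 6 genes are shown because they carry the contrasts above. Only the bases before the annotated transcripts are printed. SREBF2 holds the only TCACNCCAC match of the set, in capitals, at base -133 from the RefSeq start. Its own change did not pass in either comparison. In the other sequences capitals mark CCAAT or its reverse complement ATTGG. SCD and INSIG1 passed in both comparisons and hold it 2 times and 1 time. NSDHL, upregulated in overexpression, holds it 4 times in the printed bases, with a pair that overlaps, and TM7SF2, which was downregulated, holds it 1 time. SREBF1, which fell in knockdown, has no match and so no capitals.
SREBF2, chr22:41832855-41833078, plus strand: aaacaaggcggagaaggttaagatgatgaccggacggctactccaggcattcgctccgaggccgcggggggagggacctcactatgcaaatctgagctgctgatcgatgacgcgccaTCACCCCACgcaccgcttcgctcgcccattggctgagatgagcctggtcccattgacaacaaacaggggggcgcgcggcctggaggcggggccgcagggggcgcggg
SCD, chr10:100346983-100347123, plus strand: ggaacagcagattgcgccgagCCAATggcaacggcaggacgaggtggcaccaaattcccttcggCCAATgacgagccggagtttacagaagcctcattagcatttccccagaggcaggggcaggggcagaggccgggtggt
INSIG1, chr7:155297628-155297775, plus strand: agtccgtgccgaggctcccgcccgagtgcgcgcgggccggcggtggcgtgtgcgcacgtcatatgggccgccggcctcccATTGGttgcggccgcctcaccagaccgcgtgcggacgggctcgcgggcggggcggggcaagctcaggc
NSDHL, chrX:152830813-152830966, plus strand: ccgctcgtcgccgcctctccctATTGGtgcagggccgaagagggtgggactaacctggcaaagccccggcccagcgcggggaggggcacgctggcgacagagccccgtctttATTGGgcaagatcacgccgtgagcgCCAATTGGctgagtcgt
TM7SF2, chr11:65111622-65111844, plus strand: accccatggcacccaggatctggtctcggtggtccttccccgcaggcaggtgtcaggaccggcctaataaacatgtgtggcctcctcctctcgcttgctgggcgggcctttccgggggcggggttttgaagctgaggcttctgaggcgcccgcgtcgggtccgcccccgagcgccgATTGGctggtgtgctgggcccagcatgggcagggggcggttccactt
SREBF1, chr17:17837003-17837236, minus strand: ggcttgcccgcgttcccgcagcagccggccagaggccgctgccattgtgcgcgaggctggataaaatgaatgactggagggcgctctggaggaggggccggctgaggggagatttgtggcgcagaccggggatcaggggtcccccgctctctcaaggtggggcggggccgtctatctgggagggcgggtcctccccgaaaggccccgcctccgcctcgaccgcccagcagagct

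Genes that work beside these pathways were counted in the same fits, and each count is to be read against the shares of all genes, 22.9% upregulated and 20.5% downregulated in overexpression and 5.28% and 3.79% in knockdown. Targets of the liver X receptors (LXRs), which sense oxidised sterols and drive sterol export, fell in overexpression for 4 of 6 genes, and 1 rose. The exporter gene ABCA1 fell from 558, 584 and 594 to 149, 251 and 175 (log2 fold change -1.62, limma adjusted p=0.00055), and ABCG1 from 86.9, 78.7 and 73.6 to 21.0, 25.0 and 18.9 (log2 fold change -1.84, limma adjusted p=0.00036). The gene that rose was the phospholipid acyltransferase LPCAT3, at a log2 fold change of 0.25 (limma adjusted p=0.045). Of 7 genes of sterol uptake, trafficking and storage, 4 fell and 1 rose. NPC2, which hands cholesterol out of the lysosome, fell by 1.12 on the log2 scale and its partner NPC1 by 0.53, while TMEM97, a regulator of NPC1, rose by 0.79. In knockdown neither ABCA1 nor NPC2 passed, and 1 LXR target (LPCAT3, -0.41) and 1 trafficking gene (SCARB1, -0.52) fell, and the lysosomal lipase gene LIPA rose by 0.39. LPCAT3 and SCARB1 lie on chromosome 12, where the median over 922 tested genes was -0.28 in knockdown, and both lost their calls with chromosome medians set to 0. Of the 32 genes, MVK alone lies on that chromosome.

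A list of 9 genes held those that use isoprenoids or branch off the sterol route, and also LBR, whose reductase step lies within that route. Of these 9 genes, 4 rose in overexpression, led by PDSS1, of the coenzyme Q side chain (log2 fold change 1.23), and LBR. In the same list 1 fell (FNTB, -0.36). Of 7 genes that cut SREBPs or degrade sterol sensors, 3 rose and 2 fell, with ERLIN1 at 0.52, RNF145 at -0.75 and the protease gene MBTPS1 at -0.46. Of these lists 44.4% and 42.9% rose, against 22.9% of all genes, on lists of 9 and 7 genes. In knockdown 0 of the 9 genes of the list with LBR passed in the main limma fit and in edgeR, with 1 at an unadjusted p below 0.05. DESeq2 called 1 of them, GGPS1 (-0.26). GGPS1 also passed in limma under quantile normalisation (-0.28, limma adjusted p=0.049) and, at the margin, under scaling to the 75th percentile (-0.283). Of the processing genes, ERLIN2 fell by 0.27.

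Fatty acid oxidation genes, which break the chains down, also rose in overexpression, for 7 of 8 genes, with CPT1A at 0.66 and HADHA at 0.66. The exception, ACADVL, fell by 0.20. In knockdown 3 of 8 rose and none fell. CPT1A, the gate of mitochondrial import, went from 2061, 2080 and 1873 in shControl to 3909, 3758 and 4100 in GALNT7 KD (log2 fold change 0.97, limma adjusted p=0.0007). It thus rose in both comparisons. ACADM followed at 0.48. Of the elongation and activation genes, 6 of 11 rose and 1 fell in overexpression, with ACSL1 at 1.02, TECR at 0.38 and ELOVL7 at -0.40. In knockdown 3 of 10 tested rose, with ELOVL5 at 0.55 and HACD2 at 0.46, and ACSL4 fell by 1.53 from low levels. Among 8 tested genes of lipogenic supply and glycerolipid synthesis, 2 rose in overexpression (ME1 at 1.29 and GPAM at 1.25) and 3 fell, with DGAT1 at -0.59, which for the rise (25.0%) is near the 22.9% of all genes. In knockdown DGAT2 rose by 0.61 and MID1IP1 fell by 0.48. Of the neighbouring genes named for knockdown, CPT1A, ELOVL5 and HACD2 passed in all 18 alternatives, and LIPA, SCARB1, ERLIN2, ACADM, ACSL4, DGAT2 and MID1IP1 lost the threshold with some library left out (limma adjusted p up to 0.15). In overexpression this held for LPCAT3, FNTB, ACADVL, ELOVL7 and GPAM (limma adjusted p up to 0.13).

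**Figure D4:**
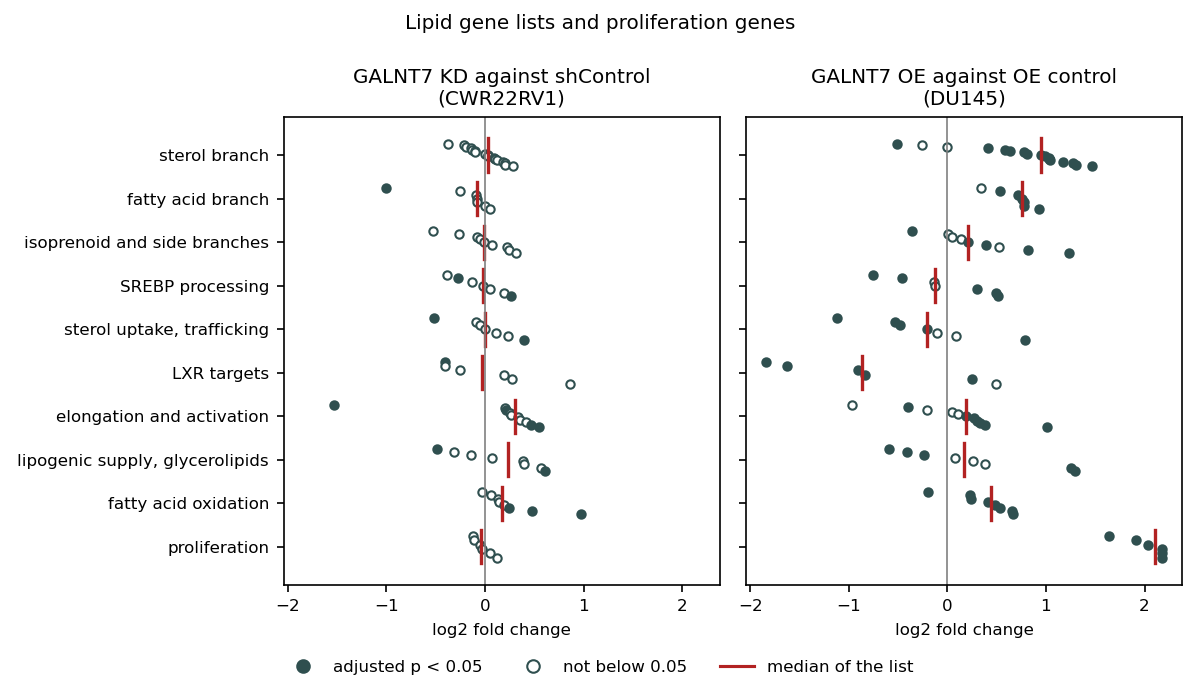
Log2 fold change (x axis) of each tested gene of the sterol and fatty acid branches, of 7 neighbouring lipid lists and of 6 proliferation genes (y axis) in knockdown (left) and overexpression (right); filled points passed an adjusted p of 0.05 and red lines are list medians. At right the sterol median of 0.95 lies above every other lipid list and the LXR target median of -0.87 below, while the proliferation genes have a median of 2.11.

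Proliferation genes moved with the synthesis genes in overexpression. MKI67, TOP2A, CCNB1, CDK1, BUB1 and PLK1 were all upregulated, at log2 fold changes of 1.64 to 2.18 and a median of 2.11. In knockdown 0 of the 6 passed in limma, edgeR or DESeq2, 0 had an unadjusted p below 0.05, and the median was -0.041. Their part in the change of the lipid genes was not tested. Among the 3 epithelial markers, EPCAM was lower in knockdown (-0.71) and higher in overexpression (0.62). KRT18 was lower in knockdown (-0.35) and KRT8 passed in neither. The log2 fold change was above 0 for 0 of the 3 in knockdown and for 1 in overexpression. The KRT18 call was lost in 8 of 18 alternatives, among them chromosome medians set to 0 (log2 fold change -0.14), the replicate block (limma adjusted p=0.054) and leaving out any shControl library or the first GALNT7 KD library (limma adjusted p 0.069 to 0.088). EPCAM in knockdown lost the threshold without the first shControl library (limma adjusted p=0.054). Of 4 genes of leukocytes, endothelium and stroma, 3 were tested in overexpression and 2 in knockdown, and the rest lay below the filter. COL1A1 fell in overexpression, from 287 to 419 in OE control to 53.6 to 154 in GALNT7 OE, and no other tested one passed. The part of these markers in the results was not tested.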

How the data were processed

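The authors deposited normalised counts (a signal of reads divided by a size factor per library) for 59424 Ensembl genes, in 1 table per cell line. The submitters' processing notes name FastQC, Salmon, DESeq2, R 3.5.3 and hg38, and how reads were assigned to strands is not given in the sources used here. Libraries came from a stranded poly(A) kit. Each value was a whole multiple of the smallest value of its library (100% within 0.01), which gave the depth. Names, positions and exon lengths came from GENCODE release 29 (94.4% of identifiers), and promoters from RefSeq. The main test was limma 3.58.1 in R 4.3.3 (lmFit, then eBayes with trend), applied to log2 of the normalised count plus 1, where a gene averaged at least 5 over the 6 libraries of its line, with Benjamini-Hochberg adjustment over all genes tested and a threshold of 0.05. Fold changes on this scale understate low genes. edgeR 4.0.16 and DESeq2 1.42.0 were run on the recovered reads of CWR22RV1 as alternatives. The limma fits were also run on simulated counts with the same spread setting for every gene. This checks the code and does not give the error rate in these data. No 2 replicates were alike within sampling noise (mean chi-square per gene 8.77 to 23.7).

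The genes and lists were chosen with earlier results of these data known. Library values are given for genes past the threshold in both comparisons, for the 4 largest changes in each direction among genes past the threshold, and for SREBF1, SREBF2, INSIG1, INSIG2, SCAP, FASN, SCD, SQLE and STARD4. Other lists are given by counts, with up to 2 genes named per direction. The values of some genes of these lists are not reported here, although the counts include them.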

Additional observations from a re-analysis of the deposited data

How the results depend on the processing

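In knockdown the calls on all genes moved most: 1623 as reported, 1002 with the replicate number as a block, 996 by eBayes without trend, 2642 by DESeq2, 392 at a threshold of 0.01, and 539 to 1336 with a library left out. The genes called among the 32 were 7, all lower, with chromosome medians centred, where 3.1% of all genes tested were called lower. By DESeq2 they were 10, with 8 lower and 2 higher. DESeq2 called 6.48% of all genes tested lower and 8.27% higher. They were 2 or 3 with a library left out, with 0 or 1 higher. The sterol median of 0.03 fell to -0.0027 under quantile normalisation and to -0.0049 without the first shControl library (range 0.044 to -0.0049 over the libraries left out). Centring chromosome medians gave a fatty acid median of -0.149 and a gap between branches of 0.18, against 0.11 as reported. With a library left out, the fatty acid median ran from -0.0963 to -0.0511 and the gap from 0.0535 to 0.135, both nearest 0 without the first GALNT7 KD library.

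In overexpression 16 alternatives left 21 to 24 genes higher and 2 to 4 lower. The sterol median of 0.95 was 0.852 with 75th percentile scaling, 0.848 with quantile normalisation and 0.894 with chromosome medians centred, and the fatty acid median was 0.654 and 0.662 under the first 2. The 75th percentile scaling moved the median of all genes from -0.011 to -0.11. The gap between branches, 0.20 as reported, was 0.128 with chromosome medians centred. With a library left out, the sterol median ran from 0.873 to 0.994 and the gap from 0.11 to 0.274. At a threshold of 0.01 the calls on all genes were 5303, and with the replicate block they were 7405.

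For the 32 genes, 555 of 576 repeats in knockdown and 497 of 512 in overexpression kept the call, 9 and 11 lost it, 12 and 4 gained it, and none reversed a call. Same-numbered libraries deviated together only weakly (correlations -0.011 to 0.075 in CWR22RV1, 0.016 to 0.043 in DU145), so the numbers were not taken to pair them. With the block, INSIG1 in knockdown (limma adjusted p=0.052) and ACSS2 in overexpression (0.082) lost their calls. The cause of these changes was not tested. Count tests were not run for DU145, where the smallest value of 2 libraries lies within 1% of 1. The values of these libraries were still whole multiples of it (100% within 0.01). With 3 libraries a group, small differences may have gone uncalled.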
